A study of Mus musculus with 16 samples.

Results

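The prostaglandin and leukotriene genes described here are 10 genes of eicosanoid synthesis and sensing, chosen by name and found on the array through the RefSeq accession of each probe: Ptgs1, Ptgs2, Ptges, Tbxas1, Hpgds, Alox5, Alox5ap, Alox15, Ltc4s and Ltb4r1. They are 10 of 12298 genes tested and had 14 probes, all of which passed the filter on dim probes. Ptgs2, Ptges, Ltc4s and Hpgds passed it only through the tumour fraction.

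Eicosanoids are signalling lipids made from arachidonic acid, which phospholipases A2 release from membranes. Cyclooxygenases, encoded by Ptgs1 and Ptgs2, make a common precursor that terminal synthases turn into prostaglandins and thromboxane, while 5-lipoxygenase, helped by its activating protein, makes leukotrienes. Platelets are known for thromboxane, neutrophils for leukotriene B4, and macrophages and tumour cells for inducible prostaglandin E2.

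RNA was measured on 2-colour Agilent mouse arrays, 1 per sample. The TIC group (8 arrays) is a density-gradient fraction of subcutaneous Hepa1-6 tumours, enriched in inflammatory cells. The blood group (8 arrays) is blood of mice bearing such tumours. Both came from female C57Bl/6 mice, which the protocol text also calls athymic, 10 days after cells of this mouse hepatoma line were injected. Both groups were labelled with Cy5. Blood RNA of female C57Bl/6 mice without treatment, called the reference here, was in Cy3 on all 16 arrays, so that both ratios share it and the ratio of either group leaves out the spread between untreated animals. The dyes were never swapped, and the groups were extracted with different RNA kits and lay on different slides. Labels number the samples but do not say that each number is 1 mouse, so p-values measure the spread between these samples. Ages are not given in the sources used here.

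The share of probes well above background was 51.1% to 65.8% for TIC and 24.8% to 36.3% for blood in Cy5, against 41.0% to 51.0% for the reference in Cy3. The number of arrays limits the precision of each value. Ratios correlated at 0.80 to 0.98 among TIC arrays and 0.56 to 0.83 among blood arrays, and at -0.31 to -0.08 between a TIC and a blood array. A hepatoma transcript was bright in the fraction: Afp, alpha-fetoprotein, had a normalised log2 intensity of 14.87 to 15.95 in TIC and 7.99 to 8.22 in blood.

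The arrays of TIC 897 and TIC 898 stood apart from the others. Debris spots, defined as spots whose local background was over 2 times the array's median, numbered 35 on 5 arrays, and they distorted the background correction of these arrays: the median log2 intensity of TIC 897 was 9.13 with the debris spots and 6.63 without them, and that of TIC 898 was 8.92 and 6.76. Ratios on these arrays were compressed, and values without debris spots are therefore given beside the fitted ones. Intensities of single channels come from the processing without debris spots. The direction of several ratios also depended on how arrays were centred. Loess, used here, sets the centre of each array to 0 along its intensity range. Centring on the plain median of each array instead moved the median log2 ratio of all genes to 1.20 for TIC, and centring on spike-in probes moved it to 0.57. For TIC minus blood these shifts were 1.46 and 0.80. Falls below are thus relative to the array's other genes at like intensity.

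Promoters are shown for both cyclooxygenase genes and for Tbxas1, because Ptgs2 lay above 0 and the other 2 genes below 0 on all TIC arrays under loess. RefSeq's promoter table (build GRCm38.p6) held 8 of the 10 genes. The 250 bases before the transcript start are given 5′ to 3′ on the gene's strand, at chr2:36230176-36230425 for Ptgs1, chr1:150099781-150100030 for Ptgs2 and chr6:38918736-38918985 for Tbxas1, all on the plus strand. Capitals mark matches to 7 motifs.
Ptgs1: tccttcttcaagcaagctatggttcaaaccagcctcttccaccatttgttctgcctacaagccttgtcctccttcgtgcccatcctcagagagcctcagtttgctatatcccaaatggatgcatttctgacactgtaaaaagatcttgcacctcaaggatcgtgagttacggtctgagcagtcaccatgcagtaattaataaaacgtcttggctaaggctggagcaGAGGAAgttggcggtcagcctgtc
Ptgs2: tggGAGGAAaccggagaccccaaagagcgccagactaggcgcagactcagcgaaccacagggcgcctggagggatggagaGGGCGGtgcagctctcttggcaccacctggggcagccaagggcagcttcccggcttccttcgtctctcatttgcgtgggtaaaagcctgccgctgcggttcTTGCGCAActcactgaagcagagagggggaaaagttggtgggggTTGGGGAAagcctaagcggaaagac
Tbxas1: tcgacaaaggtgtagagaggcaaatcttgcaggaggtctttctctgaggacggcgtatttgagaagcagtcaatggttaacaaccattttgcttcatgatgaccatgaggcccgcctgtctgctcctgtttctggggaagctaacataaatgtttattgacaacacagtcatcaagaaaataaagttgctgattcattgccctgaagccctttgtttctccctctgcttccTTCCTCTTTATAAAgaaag

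The motifs were searched on both strands. The TATA box TATAAA is in 12.4% of the 32851 promoters of this length in the table, the GC box GGGCGG in 32.7%, the GATA motif AGATAA in 9.99% and the ETS motif GAGGAA in 23.3%. The CRE site TGACG is in 17.8%, the E-box CACGTG in 6.02% and the CEBP core TTNNGNAA in 36.8%. Ptgs2 held 1 GC box, 1 ETS match and CEBP core matches that begin 69 and 25 bases before the start. Ptgs1 held only an ETS match, which begins 24 bases before the start. In Tbxas1 a TATA box that begins 11 bases before the start overlapped a match on the other strand that begins 13 bases before it, and an ETS match begins 19 bases before it. These are matches of letters, and binding was not measured.

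In TIC, 3 of the 10 genes were called lower than the reference and 0 higher. A call needs a change of at least 2-fold and, in limma, an adjusted p (Benjamini-Hochberg, over every probe tested) below 0.05. Over all genes 19.5% were called, 9.33% higher and 10.1% lower. The 3 genes were Alox5ap, Ptgs1 and Tbxas1. At the adjusted p alone 8 of the 10 passed, 4 higher and 4 lower, and so did 76.4% of all genes. The same 4 and 4 passed an unadjusted p under 0.05. The 4 higher genes, Ptgs2, Ptges, Ltc4s and Hpgds, had passed the filter on dim probes only through TIC. Their entry to the test thus depended on their TIC signal. Without debris spots Ptgs2 was called higher as well, and 23.1% of all genes were called. In blood 0 of 10 genes were called, where 0.748% of all genes were; 3 were higher at an unadjusted p under 0.05 and 0 lower. At the adjusted p alone these 3 passed, against 49.8% of all genes. Without debris spots the count of calls was again 0, against 0.789% of all genes (0.537% higher and 0.252% lower). TIC minus blood had 3 genes lower and 0 higher, against 23.9% of all genes, or 11.8% for lower calls; Ptgs2 joined them as higher without debris spots, against 27.6%. Ratios of the groups did not overlap for 4 of the 10 genes, 3 lower and 1 higher in TIC, against 42.1% of all genes. At the adjusted p alone all 10 passed in that difference, 5 higher and 5 lower, against 74.9% of all genes. The 5 higher genes were Alox15 and the 4 that passed the filter only through TIC. The median log2 ratio of the 10 genes was 0.02 in TIC and 0.05 in blood, against 0.05 and -0.02 over all genes.

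**Figure D1:**
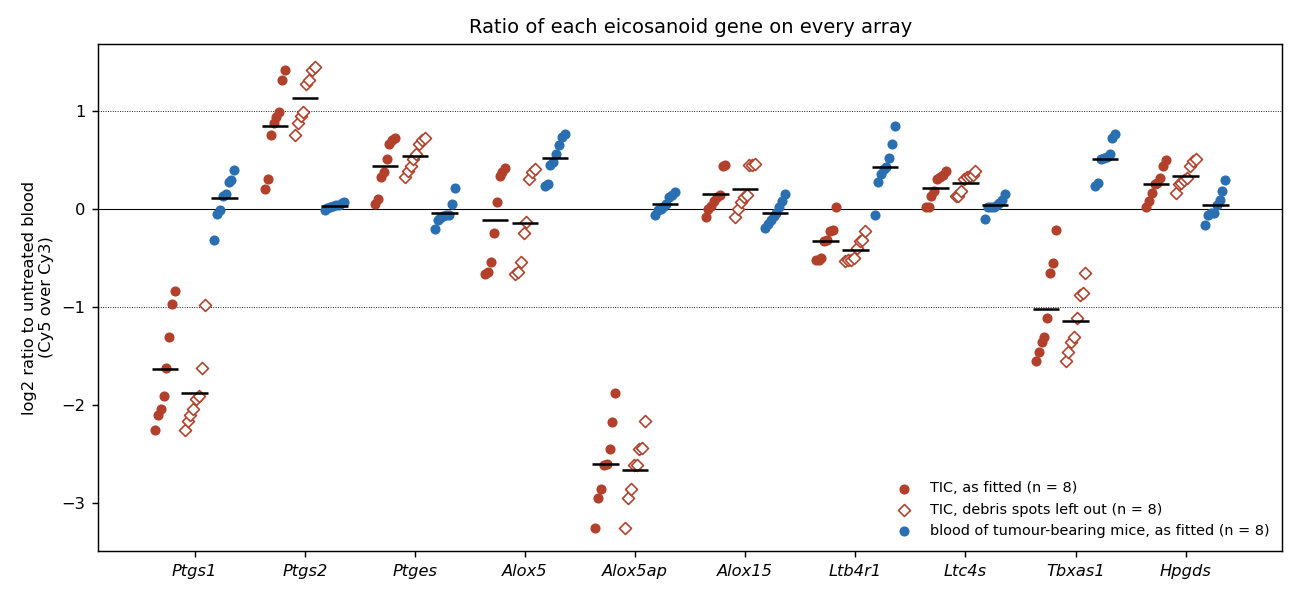
The log2 ratio to untreated blood (Cy5 over Cy3, vertical axis) is plotted for each gene on every array, with TIC as fitted, TIC without debris spots and blood from left to right; short bars are means and dotted lines mark 2-fold. All 8 TIC arrays lie below 0 for Ptgs1, Alox5ap and Tbxas1, while Ptgs2 is above 0 on all 8; under median centring the mean TIC ratios of Ptgs1 and Tbxas1 turn to 0.17 and 0.89.

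Of the cyclooxygenases, Ptgs1 was lower in TIC than in blood and Ptgs2 was above background in TIC alone. Ptgs1, the cyclooxygenase that platelets use, had log2 ratios of -2.25, -1.76 and -0.84 (lowest, median and highest) in TIC, against -0.32, 0.14 and 0.40 in blood, so the groups did not overlap. It fell by 1.63 ± 0.16 in TIC against the reference (log2 ± SE, n = 8, adjusted p = 1.46e-05), while its blood ratio was 0.11 ± 0.07 (adjusted p = 0.201). The difference TIC minus blood was -1.74 ± 0.19 (adjusted p = 2.11e-07) and -2.00 ± 0.14 without debris spots. Ptgs1 was well above background on every array in both channels, at 7.49 ± 0.47 in TIC and 10.01 ± 0.24 in blood (log2 Cy5 intensity, SD, n = 8 each), and 9.62 ± 0.28 in the reference (16 arrays). The fall depended on centring: by array medians the TIC ratio was 0.17 and TIC minus blood 0.72, which stood 1.04 and 0.74 below the medians of all genes. By spike-in probes TIC minus blood was 0.06. The blood ratio of Ptgs1 turned to -0.55 by array medians (adjusted p = 0.0161) and to -0.53 by spike-in probes (adjusted p = 0.014).

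Ptgs2, the cyclooxygenase induced in inflammation and in many tumours, was well above background on 8 of 8 TIC arrays, on 0 of 8 blood arrays and on 0 of 16 in the reference channel. Its log2 ratios were 0.20, 0.91 and 1.41 (lowest, median and highest) in TIC, against -0.01, 0.04 and 0.07 in blood. The groups did not overlap, and the lowest TIC values were those of 897 and 898, at 0.20 and 0.31 as fitted, against 1.45 and 1.28 without debris spots. The TIC ratio was 0.85 ± 0.13 (adjusted p = 0.000288), under 2-fold, and without debris spots it was 1.13 ± 0.08 (adjusted p = 2.72e-08), which passed. Without the arrays numbered 897 and 898 it was 1.05 and passed too. As fitted, TIC minus blood was 0.82 ± 0.14 and 1.09 ± 0.09 without debris spots. Since blood and the reference gave no signal well above background, the loess-processed intensities set bounds. In them Ptgs2 was at least 2.35-fold higher in TIC than in blood and at least 2.19-fold higher than in the reference. Such bounds hold for these intensities and set no limit on the ratios above or on other centrings. A bound divides the mean of the bright side by that of the dim side, where each array of the dim side enters with its own signal or the lowest signal well above background, whichever is higher; dye bias was not tested. The second Ptgs2 probe gave 0.76 for TIC and 0.71 for TIC minus blood, and 1.005 and 0.952 without debris spots. In the deposited ratios, which the scanner program computed, Ptgs2 stood at 5.06 in TIC and 5.04 in TIC minus blood; there a background-subtracted signal near 0 is the denominator.

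**Figure D2:**
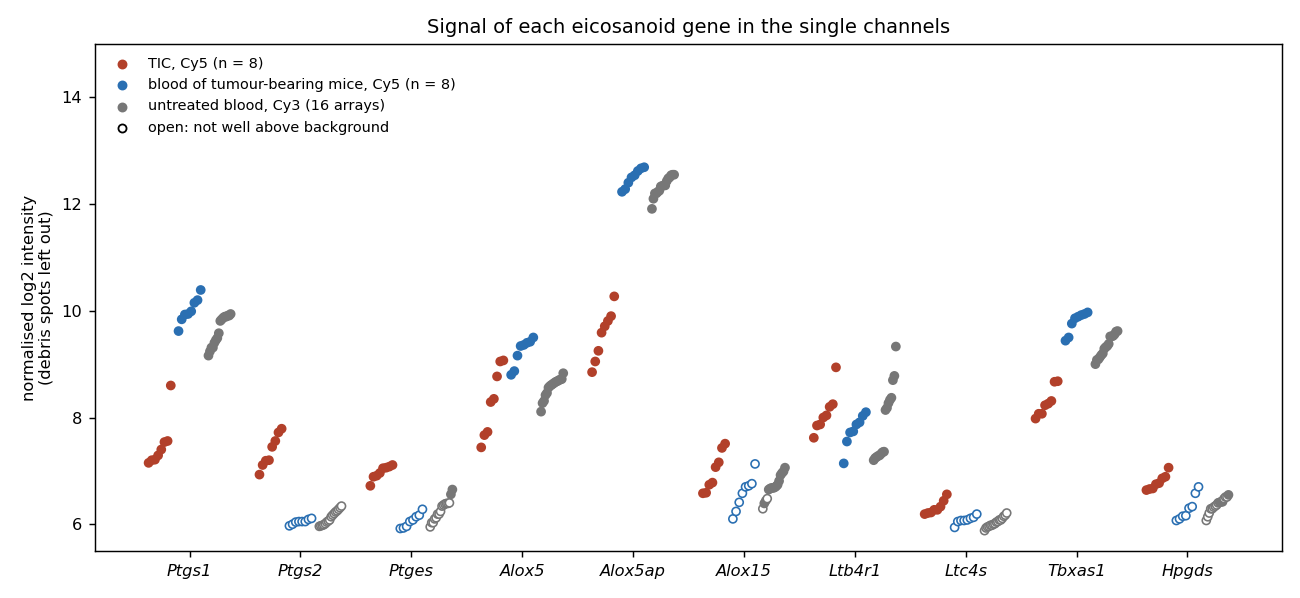
Normalised log2 intensity (vertical axis) is shown per array for TIC in Cy5, blood in Cy5 and untreated blood in Cy3, with open circles where the probe was not well above background. Ptgs2 is filled only in TIC, between 6.93 and 7.79, while Alox5ap lies between 8.85 and 10.27 in TIC and between 12.23 and 12.69 in blood; levels of different genes come from different probes and are not comparable.

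Among terminal prostanoid synthases, Tbxas1 fell in TIC, and Ptges and Hpgds were below the 2-fold limit under loess. Tbxas1, thromboxane A synthase of platelets and macrophages, had log2 ratios of -1.55, -1.20 and -0.21 in TIC, against 0.24, 0.53 and 0.77 in blood (lowest, median and highest), with no overlap. It fell by 1.02 ± 0.15 in TIC (adjusted p = 0.000204), and its blood ratio was 0.51 ± 0.06 (adjusted p = 2.93e-06), higher on 8 of 8 arrays but under 2-fold. Centred on array medians the blood ratio turned to -0.14 (adjusted p = 0.454), and centred on spike-in probes to -0.11 (adjusted p = 0.916). TIC minus blood was -1.54 ± 0.17 (adjusted p = 2.9e-07), and -1.69 ± 0.12 without debris spots. The TIC call was marginal: it was lost without number 889 (-0.98), 890 (-0.97), 891 (-0.95) or 893 (-0.96), and the arrays of the first TIC slide averaged -1.42 against -0.63 on the second, which held 897 and 898. Without debris spots the TIC ratio was -1.14. Its second probe gave -0.76 in TIC, which was not called, and -1.18 in TIC minus blood, which was. Centred on array medians, Tbxas1 turned to 0.89 in TIC and 1.03 in TIC minus blood, and centred on spike-in probes to 0.26 and 0.37; these values were below the medians of all genes by 0.31 and 0.42.

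Ptges, microsomal prostaglandin E synthase, the inducible partner of Ptgs2, was well above background on 8 of 8 TIC arrays, 0 of 8 blood arrays and 2 of 16 in the reference channel. Its log2 ratios were 0.05, 0.45 and 0.73 in TIC, against -0.20, -0.07 and 0.22 in blood. The groups overlapped as fitted and did not overlap without debris spots. The TIC ratio was 0.43 ± 0.09 (adjusted p = 0.00133), TIC minus blood was 0.48 ± 0.10 (adjusted p = 0.000388), and the intensities put TIC at least 1.78-fold above blood. Under array-median centring Ptges was called higher, at 1.13 in TIC and 1.1 in TIC minus blood, and in the deposited ratios at 2.10 and 1.85. Hpgds, haematopoietic prostaglandin D synthase of mast cells and some lymphocytes and macrophages, was well above background on 8 TIC arrays and 0 blood arrays. In the reference channel it was so on 4 of 16 arrays, all of them TIC arrays. Its ratios were 0.02, 0.26 and 0.50 in TIC, against -0.17, 0.00 and 0.30 in blood. Its difference TIC minus blood was 0.22 ± 0.08 (adjusted p = 0.0227), and the intensities gave a bound of at least 1.39-fold over blood.

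In the leukotriene branch, Alox5ap carried the largest change of the 10 genes under loess, whereas Alox5 itself changed less than 2-fold. Alox5ap encodes the membrane protein FLAP, which presents arachidonic acid to 5-lipoxygenase. It had log2 ratios of -3.25, -2.61 and -1.88 in TIC, against -0.06, 0.04 and 0.18 in blood, again with no overlap. It fell by 2.60 ± 0.13 in TIC (adjusted p = 1.04e-07), and its blood ratio was 0.06 ± 0.04 (adjusted p = 0.289). Against blood, TIC had a difference of -2.65 ± 0.14 (adjusted p = 1.6e-11), or -2.72 without debris spots. Alox5ap was well above background on every array in both channels, at 9.55 ± 0.47 in TIC and 12.49 ± 0.17 in blood (log2 Cy5 intensity, SD, n = 8 each). In a separate fit to the Cy5 signal, TIC minus blood was -3.05. Under array-median centring the TIC ratio was -0.45, and TIC minus blood was 0.05; relative to the medians of all genes these were -1.65 and -1.41. The blood ratio turned to -0.50 (adjusted p = 0.0283).

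Alox5, 5-lipoxygenase of neutrophils and other myeloid cells, was well above background on all arrays in both channels. Its log2 ratios were -0.67, -0.09 and 0.42 in TIC, against 0.24, 0.52 and 0.77 in blood, and the groups overlapped. Its TIC ratio was -0.11 ± 0.14 (adjusted p = 0.501), with 4 arrays above 0 and 4 below. Its blood ratio was 0.52 ± 0.06 (adjusted p = 4.01e-06), higher on 8 of 8 arrays and under 2-fold, but it turned to -0.10 under array-median (adjusted p = 0.442) and -0.07 under spike-in centring (adjusted p = 0.944). The difference of the groups, TIC minus blood, was -0.63 ± 0.16 (adjusted p = 0.00251), and it turned to 1.79 under array-median and 1.14 under spike-in centring. The other 2 Alox5 probes gave -0.47 and -0.59 in TIC minus blood. The Cy5 intensity of Alox5 ranged from 7.44 to 9.07 among TIC arrays and from 8.80 to 9.50 among blood arrays.

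Alox15, the 12/15-lipoxygenase of some macrophages and eosinophils, was well above background on 8 TIC arrays and 0 blood arrays, but also on 14 of 16 reference channels. Its ratios were -0.08, 0.11 and 0.45 in TIC, against -0.20, -0.06 and 0.15 in blood, and TIC minus blood was 0.19 ± 0.08 (adjusted p = 0.0478), or 1.05 under array-median centring, where it was called. Ltc4s, leukotriene C4 synthase of mast cells and eosinophils, was well above background on 8 TIC arrays and nowhere else. Its ratios were 0.02, 0.24 and 0.39 in TIC, against -0.10, 0.03 and 0.16 in blood. TIC minus blood was 0.18 ± 0.06 (adjusted p = 0.0222) under loess, was 0 under array-median centring and turned to -0.66 under spike-in centring. In the loess-processed intensities its bounds were at least 1.12-fold over blood and 1.19-fold over the reference. No bounds were computed under the other centrings.

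Ltb4r1, the high-affinity leukotriene B4 receptor through which neutrophils are drawn to inflammation, was the one receptor. Its log2 ratios were -0.52, -0.32 and 0.03 in TIC, against -0.06, 0.42 and 0.85 in blood. The TIC ratio was -0.32 ± 0.07 (adjusted p = 0.00159) and the blood ratio 0.43 ± 0.07 (adjusted p = 0.000193), both under 2-fold. The blood ratio was 0.17 under array-median (adjusted p = 0.105) and 0.20 under spike-in centring (adjusted p = 0.663). In the deposited ratios it was 1.26 (adjusted p = 3.97e-05) and was called higher. TIC minus blood was -0.75 ± 0.11 (adjusted p = 9.23e-06) under loess, 1.31 under array-median centring and 0.66 under spike-in centring. Its Cy5 intensity did not show that difference: 8.10 ± 0.39 in TIC and 7.76 ± 0.31 in blood (SD, n = 8 each), and TIC minus blood was 0.24 in the separate Cy5 fit (adjusted p = 0.229). The reference channel, which held the same kind of RNA throughout, read 8.14 to 9.33 on TIC arrays and 7.20 to 7.36 on blood arrays for this probe. Other probes shifted as well. For the prostaglandin transporter Slco2a1, Cy3 was well above background on 8 TIC arrays and 0 blood arrays. The same counts were 4 and 0 for Hpgds and 2 and 0 for Ptges. Ptgs1 went the other way, with Cy3 at 9.16 to 9.58 on TIC arrays and 9.81 to 9.94 on blood arrays. The part of these shifts in the ratios was not tested.

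The other pathway genes came from 6 lists of textbook members. Upstream, 10 of 18 phospholipase A2 genes were tested, and 2 fell in TIC and 0 rose (median log2 ratio 0.05 in TIC). Pla2g2d, a secreted phospholipase of lymphoid dendritic cells and macrophages, fell by 2.57 ± 0.29 in TIC and Pla2g12a by 1.01 ± 0.12, and both were also called lower in TIC minus blood (-1.58 and -1.32). In blood Pla2g2d had -0.99 ± 0.06 (adjusted p = 4.28e-09), lower on 8 of 8 arrays, and without debris spots -1.01, which was called. Pla2g12a turned to 0.41 in TIC under array-median centring and to 0.69 in TIC minus blood, where Pla2g2d turned to 0.23. The TIC call of Pla2g12a was lost without number 889 (-0.996), 891 (-0.968), 893 (-0.975) or 894 (-0.94). Pla2g4a, the cytosolic phospholipase that feeds both branches, had 0.41 ± 0.09 in TIC and 0.16 ± 0.06 in blood.

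Among other prostanoid synthases, 1 of 5 tested genes rose in TIC and 0 fell. It was Ptges3, the cytosolic prostaglandin E synthase that is also the Hsp90 co-chaperone p23, at 2.18 ± 0.10 in TIC (adjusted p = 4.49e-08) and 2.15 ± 0.12 in TIC minus blood. Among 6 genes of prostaglandin breakdown and transport, 2 rose and 1 fell in TIC. Ptgr1, a reductase that inactivates prostaglandins and leukotriene B4, rose by 1.90 ± 0.07 in TIC and by 2.03 ± 0.12 in TIC minus blood. Slco2a1, the prostaglandin uptake transporter, rose by 1.09 ± 0.12 and 1.04 ± 0.13, the second of which was lost without number 891 (0.98) or 893 (0.97). Its Cy5 signal was well above background on 8 TIC arrays and 0 blood arrays, and so was its Cy3 signal. The loess-processed intensities put TIC at least 5.1-fold above blood. TIC minus blood was 2.27 in the separate Cy5 fit and 2.57 under array-median centring, and both were called. Hpgd, the dehydrogenase that starts prostaglandin breakdown, fell by 1.15 ± 0.16 in TIC, and by array medians it had -0.58 and was not called. TIC minus blood was -0.71 ± 0.18 and passed without debris spots (-1.04).

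Of 9 prostanoid receptor genes 5 were tested, and 2 fell in TIC and in TIC minus blood. Ptgdr2, the prostaglandin D2 receptor of eosinophils, basophils and type 2 lymphocytes, had -1.68 ± 0.29 in TIC and -2.12 ± 0.31 in TIC minus blood, and Ptgir, the prostacyclin receptor found on platelets, had -1.09 ± 0.16 and -1.15 ± 0.18. Under array-median centring Ptgir was at -0.20 in TIC and turned to 0.13 in TIC minus blood, and neither was called. Of the prostaglandin E2 receptors Ptger2 and Ptger4 were tested, with TIC ratios of 0.20 ± 0.06 and 0.07 ± 0.05.

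The list of other lipoxygenase and leukotriene enzymes had 11 of 15 genes tested, with 4 lower and 0 higher in TIC. Alox12, the platelet 12-lipoxygenase, fell by 5.20 ± 0.14 in TIC (adjusted p = 1.05e-09), while its blood ratio was 0.26 ± 0.05. TIC minus blood was -5.46 ± 0.16, and it stayed lower under array-median (-2.89) and spike-in centring (-3.55). Mgst3, Alox12e and Cyp4f18, which in mouse neutrophils inactivates leukotriene B4, fell by 1.15, 1.05 and 1.05 in TIC; under array-median centring Mgst3 and Cyp4f18 turned to 0.11 and 0.92 and Alox12e was at -0.01, and under spike-in centring they had -0.52, 0.29 and -0.64, with 0 of the 3 called lower either way. The TIC call was lost without number 894 (-0.95) or 896 (-0.99) for Alox12e, and without 891 (-0.996) or 894 (-0.997) for Cyp4f18. Lta4h, which makes leukotriene B4, had 0.65 ± 0.07 in TIC and -0.22 ± 0.05 in blood. Cotl1, an actin-binding partner of 5-lipoxygenase, was the one gene of the 6 lists called in blood as fitted, at -1.01 ± 0.09, a call lost without number 894 (-0.97), 896 (-0.92), 897 (-0.993) or 898 (-0.995), and it was higher in TIC minus blood by 1.49 ± 0.15. Alox12b, a skin lipoxygenase, had -1.08 ± 0.15 in TIC minus blood and was not called without number 896 (-0.97). Of 3 tested receptors for leukotrienes and other lipid mediators 0 were called; Cysltr1, a cysteinyl leukotriene receptor, had 0.78 ± 0.12 in TIC, and 1.01 without debris spots, where it was called. Fpr2, a formyl peptide receptor that also binds lipoxin A4, had -0.94 ± 0.15 in TIC minus blood, and -1.08 without debris spots, where it was called lower.

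**Figure D3:**
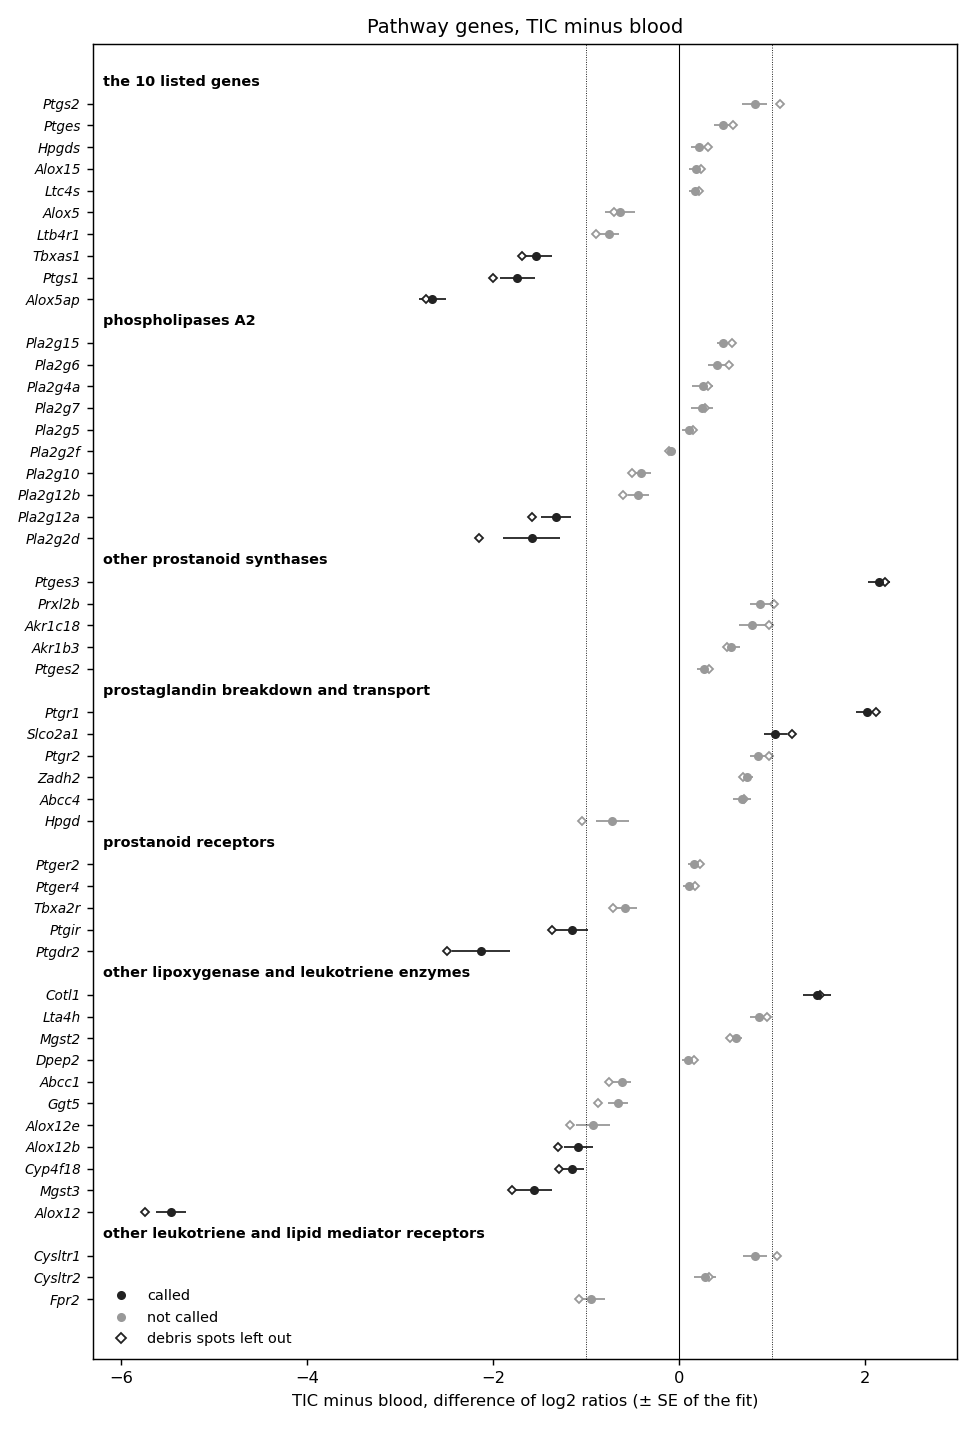
TIC minus blood as a difference of log2 ratios (horizontal axis, bars ± SE of the fit, 16 arrays) is plotted for the 10 genes and for 40 tested genes of 6 pathway lists, black where called; open diamonds leave out debris spots. Alox12 is farthest to the left at -5.46 and Ptges3 farthest to the right at 2.15; under array-median centring Ptgs1, Alox5, Alox5ap, Ltb4r1, Tbxas1, Pla2g2d, Pla2g12a, Ptgir, Mgst3 and Cyp4f18 turn positive.

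Markers of several cell types also differed in TIC, some higher and some lower. In bulk RNA fewer cells of a type and less RNA per cell cannot be told apart. All 8 tested platelet markers were lower in TIC than in the reference (median log2 ratio -4.85), also under array-median and spike-in centring. Ppbp, a platelet chemokine, had a log2 Cy5 intensity of 7.03 to 7.79 in TIC and 14.30 to 14.93 in blood. The mean log2 intensity of the platelet list was 6.09 to 6.75 in TIC and 12.30 to 12.69 in blood. Of 8 neutrophil markers, 4 were lower in TIC (median -1.02) and 4 higher in blood (median 1.01), and 7 were lower in TIC minus blood. Of these 7, Mmp9 (-1.34) alone had a higher mean log2 Cy5 intensity in TIC (9.50) than in blood (8.79). Cxcr2, the neutrophil chemokine receptor, ranged from 6.49 to 7.65 in TIC and from 8.92 to 10.62 in blood. Under array-median centring 0 neutrophil markers were called lower and 1 higher in TIC, and without debris spots 5 were lower. Of 9 macrophage and monocyte markers, 6 were higher in TIC and 1, Lyz2, was lower (median 1.06); without debris spots 7 were higher. The list mean was 10.21 to 10.92 in TIC and 8.04 to 8.25 in blood. Of 13 mast cell, basophil and eosinophil markers, 0 were higher in TIC and 1, Hdc, was lower. Cpa3, a mast cell protease, was above background on 8 TIC arrays and 0 blood arrays. Erythroid markers were lower in TIC for 7 of 10 genes and B cell markers for 7 of 7, while hepatoma and hepatocyte markers were higher for 5 of 7. The other lists had 2 of 6 T cell markers lower, 2 of 7 fibroblast markers higher and 0 of 4 endothelial markers called. The part of these cell types in the changes of the 10 genes was not tested.

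After each group's mean was taken out, ratios of the 3 called genes correlated over 16 arrays at 0.79 for Ptgs1 and Tbxas1, 0.75 for Alox5ap and Tbxas1, and 0.58 for Ptgs1 and Alox5ap. Ptgs1 and Ptgs2 correlated at -0.66, and Alox5 and Alox5ap at 0.69. These points share the compression of arrays 897 and 898 and are a description. By the same measure the gene most like Ptgs1 was Vkorc1 (0.89), the one most like Alox5ap was Lyl1 (0.94), and the one most like Tbxas1 was Sphk2 (0.96).

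**Figure D4:**
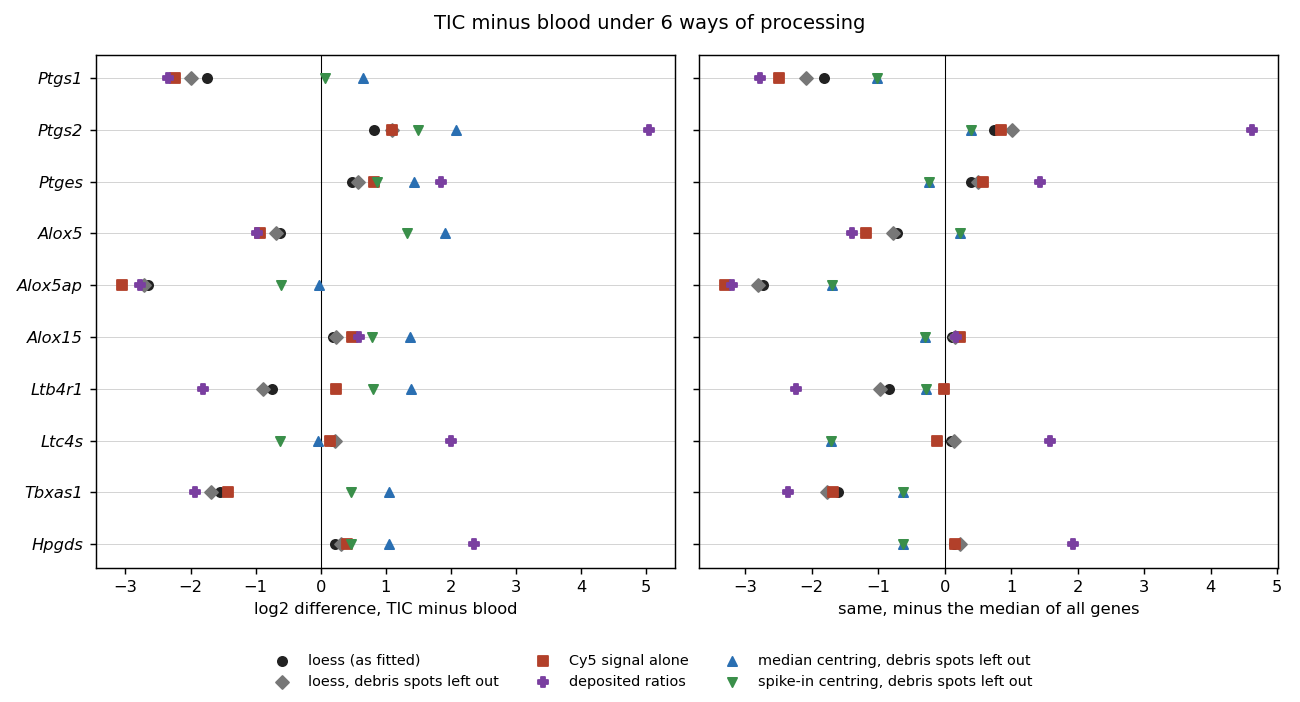
The left panel gives the log2 difference TIC minus blood of each gene under 6 ways of processing, and the right panel the same after subtraction of the median of all genes under that processing. Median and spike-in centring are plotted without debris spots. On the left Ptgs1, Alox5, Ltb4r1 and Tbxas1 change side under both of them, and Ltb4r1 also with Cy5 alone. Ltc4s goes to -0.62 under spike-in centring and -0.04 under median centring. On the right Ptgs1, Alox5ap, Tbxas1 and Ltb4r1 stay below 0 and Ptgs2 above 0 under all 6, with Ltb4r1 at -0.01 for Cy5 alone.

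Relative to the median of all genes, Ptgs1, Alox5ap and Tbxas1 were lower and Ptgs2 higher in TIC minus blood under every processing shown in that plot. Ltb4r1, not called as fitted, was lower under every one too, though at -0.01 with Cy5 alone. With median or spike-in centring Ptgs1 stood at percentile 34.1 of all genes and Tbxas1 at 40.7. When debris spots were left out too, they stood at 29.9 and 36.9. Ptgs2 stood 0.74 above the median of all genes as fitted (percentile 83.6 of all genes) and 1.01 above it without debris spots (percentile 88.4). With median or spike-in centring it stood 0.10 above it (percentile 52.2), and 0.40 above it when debris spots were left out too (percentile 58.7). Alox5ap stood at percentile 3.1 as fitted and 18.9 with median centring without debris spots. Ptges, Alox15, Ltc4s and Hpgds, by contrast, were above the median of all genes by loess and below it by array-median centring. In the deposited ratios Hpgds and Ltc4s were called higher in TIC minus blood, at 2.35 and 2.0, and Ltb4r1 lower, at -1.81.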

How the data were processed

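RNA of 8 TIC and 8 blood samples was hybridised in Cy5 against untreated blood RNA in Cy3. The deposited scanner files hold, for Cy5 and Cy3, median pixel intensities of spots and of their surroundings, written by Agilent Feature Extraction 10.5.1.1 per the file headers, whereas the submitters' processing notes name 9.1.3.1. They also hold log10 ratios (Cy5 over Cy3), which, per the file headers, this program had corrected for background and dye. The deposited value table differed from those log10 ratios by 0 on every array, so its scale and direction are known and its centring is the program's.

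Intensities were corrected with normexp (offset 50) and the ratios normalised within arrays by loess in limma 3.58.1 (R 4.3.3, package data.table, version 1.17.8). Control spots and spots with an outlier flag (87 to 153 an array) had weight 0, and no spot was saturated. Spots of a probe were averaged, which gave 41174 probes, of which 23374 were named by RefSeq accession from RefSeq genes of GRCm38.p6. The 26494 probes tested passed a detection limit: well above background in Cy5 on 4 or more of a group's 8 arrays, or in Cy3 on 8 or more of all 16. The tested probe with the highest mean intensity stands for a gene. Ratios of each group were tested against 0 on its 8 arrays, and TIC minus blood on all 16, with lmFit and eBayes. Probes shifted by 1.5 on the log2 scale in simulated data were recovered at 96% for TIC and at 100% for blood and for the difference, over 26494 probes. Single-channel intensities were additionally scaled between arrays (Aquantile). Figures were drawn with matplotlib 3.10.9.

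All 10 genes and their probes are named. Of the pathway lists, called genes are named, with Pla2g4a, Ptger2, Ptger4, Lta4h and Cysltr1 chosen after their values were seen. The members and lists were chosen with earlier results of these data known. Leaving out debris spots was chosen after the arrays had been examined. Other alternatives were the centring, background correction, probe filter, slides, sample numbers and single-channel signal.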

Additional observations from a re-analysis of the deposited data

Results flagged for a closer look

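TIC and blood were set against the same reference, and the difference between their ratios was called for 3 of the 10 genes, all lower. Of all genes 23.9% were called in that difference, and 11.8% were called lower. Ptgs1 had a log2 difference of -1.74, Alox5ap of -2.65 and Tbxas1 of -1.54, from TIC ratios of -1.63, -2.60 and -1.02 against blood ratios of 0.11, 0.06 and 0.51. The size of each under other centrings is given with the processing alternatives. Platelet markers were lower in TIC for 8 of 8 tested genes, and their part in these differences was not tested. Among the 10 genes in both groups, 20 sets of 8 ratios were examined for a single array far from the others, and 0 had one. Each extreme ratio was compared with its nearest neighbour, so arrays that stand apart together can be missed. For Ptgs2 in TIC, arrays 897 and 898 were neighbours at 0.20 and 0.31, and the next ratio was 0.76 (array 893). The count of 0 therefore does not bear on arrays 897 and 898.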

How the results depend on the processing

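Under array-median centring, 7259 genes were called for TIC against the reference, 894 for blood against the reference and 7711 for TIC minus blood. Spike-in centring gave 5753, 803 and 6766, and the deposited ratios 5759, 956 and 7006. Subtracting the background with a floor gave 4372, 402 and 5315, and dropping the 2-fold limit gave 9395, 6126 and 9212. Without debris spots, median centring gave 8081, 582 and 8389 and spike-in centring 6781, 1017 and 7700. Cy5 signal alone gave 4454 for TIC minus blood. Blood calls numbered 53 with no background correction, 61 on the first slide of blood and 152 on the second. Of the 10 genes, the deposited ratios called 7 in TIC (4 higher, 3 lower), 1 in blood (Ltb4r1, higher) and 8 in the difference (4 higher, 4 lower). Subtraction with a floor called 5 in TIC (2 higher, 3 lower) and 6 in the difference (2 higher, 4 lower). The adjusted p alone called 8 in TIC, 3 in blood and 10 in the difference. Median centring called 6 in the difference, all higher, and spike-in centring 1, which was higher, whereas all 3 calls as fitted were lower. Median centring without debris spots called 7 in TIC and 7 in the difference, all higher. In TIC, median centring called 4, all higher, and spike-in centring 2 higher and 1 lower. Tbxas1, lower in the difference as fitted, was called higher there under median centring.

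Signs turned as follows for the 10 genes. In TIC against the reference, median centring gave Ptgs1 0.165, Alox5 1.695, Ltb4r1 1.487 and Tbxas1 0.893, and without debris spots 0.224, 1.925, 1.638 and 1.034. Spike-in centring gave Alox5 1.065, Tbxas1 0.262, Ltb4r1 0.86 and Ltc4s -0.52, and without debris spots 1.208, 0.316, 0.92 and -0.63. In TIC minus blood, median centring gave Ptgs1 0.72, Alox5 1.793, Alox5ap 0.049, Ltb4r1 1.313 and Tbxas1 1.031, and without debris spots Ptgs1 0.65, Alox5 1.905, Ltb4r1 1.391 and Tbxas1 1.049. Spike-in centring gave Ptgs1 0.062, Alox5 1.135, Tbxas1 0.373, Ltb4r1 0.66 and Ltc4s -0.66, and without debris spots 0.067, 1.322, 0.47, 0.81 and -0.62. Ltc4s was at 0 under median centring and -0.04 without debris spots too. Ltb4r1 was 0.24 in Cy5 alone. In blood against the reference, median centring gave Ptgs1 -0.55, Alox5 -0.10, Alox5ap -0.50 and Tbxas1 -0.14, and spike-in centring -0.53, -0.07, -0.47 and -0.11; other blood signs turned only among ratios with adjusted p above 0.05 both ways. Median and spike-in centring move all ratios of an array by one amount, whereas loess also follows intensity, so values relative to the median of all genes moved too: Alox5 in TIC minus blood stood at -0.71 under loess and at 0.34 under median centring. Which of them is right was not tested.

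Leaving out each sample number in turn gave 2312 to 2625 called genes for TIC, 75 to 105 for blood and 2832 to 3145 for the difference, and 2 to 3, 0 and 3 of the 10 genes. TIC and blood share sample numbers, but same-numbered samples correlated at -0.18 to 0.23, above 0.1 for 6 of 8 numbers, and 2 of 8 correlated best with their own number. With the number as a replicate block, 2935 genes and 3 of the 10 were called in the difference, as without it. Each slide held 1 group, so a difference shared by the slides of a group cannot be told apart from the group difference. Slide as a random block (correlations 0.08, -0.01 and 0.10) left all counts as they were. The 5 genes not well above background in blood are limited by background there, and their folds over blood are bounds in the loess-processed intensities only.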
